A study of Mus musculus with 5 samples.

Results

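The cytosolic ribosomal protein genes encode the protein part of the ribosomes that translate nuclear mRNAs, and 52 of the 20097 gene symbols measured in the embryonic mouse pituitary were followed here. They were taken by symbol alone, as the Rpl, Rps and Rplp names without pseudogenes, with the longest listed region for each name. Of the 52, 31 belong to the large and 21 to the small subunit. Out of 79 genes on a textbook list of mouse cytosolic ribosomal proteins, 48 were among them, and the remaining 4 were the paralogs Rpl3l, Rpl10l, Rpl39l and Rps27l. Fau is on the textbook list and falls outside the naming. A further 29 of its genes were not found under their own symbols, and 18 of these are taken up later under other names. The naming rule itself used no measured value, but the group was chosen with earlier results of these data known.

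RNA came from the pituitaries of littermate embryos of the B6;129 strain at stage e12.5. The 3 control embryos carried floxed Itgb1 alleles (Itgb1 f/f) and the 2 knockout embryos carried the same alleles with the Cre transgene (Itgb1 f/f; Pitx1-cre). Pitx1 regulatory sequence is active in oral ectoderm and the pituitary that forms from it, so other cells of the dissected tissue keep their Itgb1. The product of Itgb1, integrin beta 1, is a subunit of many extracellular matrix receptors. Libraries are named by the numbers in their labels, 9, 10 and 12 for the controls and 13 and 16 for the knockouts. Each value is a number of tags per 10000000 tags in all, summed over a gene's region with its introns.

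A ribosome holds 1 copy of nearly every ribosomal protein, and the genes for these proteins are transcribed at high and closely matched rates in dividing cells. Their mRNAs start with a cytosine and a run of pyrimidines, the terminal oligopyrimidine (TOP) tract, through which the kinase mTORC1 and the RNA-binding protein LARP1 set their translation and stability. Haploinsufficiency for several of them activates p53 through free Rpl5 and Rpl11, and lowers red cell production in Diamond-Blackfan anaemia.

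Reads recovered over the listed genes numbered between 5445240 and 6143263 in the controls, against 5507288 in knockout 13 and 4480809 in knockout 16. The median ribosomal protein gene rested on 54, 85 and 70 reads in controls 9, 10 and 12, on 134 reads in library 13 and on 34 in library 16. Library 16 stood apart from the others in its background: over 408 autosomal olfactory and vomeronasal receptor genes it held 1.498 tags per kilobase, against 0.259, 0.396 and 0.159 in the controls and 0.480 in library 13. Itgb1 had 273, 426 and 431 tags in the controls, then 446 for knockout 13 and 186 for knockout 16, and a region that includes undeleted sequence does not check the deletion. All 10 pituitary markers listed had tags in every library, with Pitx1 at between 97.3 and 284. The labelled cell type is epithelial, yet the 6 mesenchyme markers also had tags in every library and summed to between 630.0 and 1218.

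The annotated starts show the TOP tract in part of the group, and they are shown here because this is the sequence the ribosomal protein mRNAs are known for. RefSeq promoters (GRCm38.p6) were found for 41 of the 52 genes by symbol. A C at the annotated start followed by at least 4 further bases that are all C or T, read on the gene's strand only, was present in 10 of the 41 (24.4%) and in 813 of 27025 symbols with a promoter (3.01%). The lines give 40 bases before and 15 bases from the start, with the tract in capitals.
Rpl14, chr9:120571477-120571531, plus strand: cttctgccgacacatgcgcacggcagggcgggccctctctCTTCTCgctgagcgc
Rpl15, chr14:18270972-18271026, minus strand: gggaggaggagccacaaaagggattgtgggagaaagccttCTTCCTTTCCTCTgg
Rpl28, chr7:4792925-4792979, plus strand: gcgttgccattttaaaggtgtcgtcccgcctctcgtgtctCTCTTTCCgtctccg
Rpl35, chr2:39005117-39005171, minus strand: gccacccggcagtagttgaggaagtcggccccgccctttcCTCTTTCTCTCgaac
Rpl35a, chr16:33056442-33056496, plus strand: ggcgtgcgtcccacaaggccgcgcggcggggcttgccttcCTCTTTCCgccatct
Rpl38, chr11:114668540-114668594, plus strand: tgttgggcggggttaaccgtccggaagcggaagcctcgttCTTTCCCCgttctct
Rps6, chr4:86857353-86857407, minus strand: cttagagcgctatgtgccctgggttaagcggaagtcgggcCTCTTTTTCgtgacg
Rps10, chr17:27635230-27635284, minus strand: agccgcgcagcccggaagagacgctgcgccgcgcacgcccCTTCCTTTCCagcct
Rps15a, chr7:118116133-118116187, minus strand: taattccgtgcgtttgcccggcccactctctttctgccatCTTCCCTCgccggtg
Rps18, chr17:33955651-33955705, minus strand: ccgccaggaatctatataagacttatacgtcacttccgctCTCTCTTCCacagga
The tract ran from 6 bases at Rpl14 to 13 at Rpl15. The other genes with a promoter do not meet this rule at the annotated start, and no start was read for genes without a promoter. Neither says anything about the start used in these cells.

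The group as a whole held a small and variable share of the tags. Of all tags listed outside the ribosomal RNA precursor Rn45s, the 52 genes took 0.126%, 0.202% and 0.153% in controls 9, 10 and 12, 0.265% in library 13 and 0.0753% in library 16. Library 13 was highest and library 16 lowest, with the controls between them. Per kilobase of region, Rps15 of the small subunit was the highest, with 184, 319 and 238 tags per kilobase in the controls, with 411 in knockout 13 and 95.6 in knockout 16. Rpl8, a large-subunit protein next to the peptidyl transferase centre, followed with 127, 222 and 177 tags per kilobase in the controls, against 404 in knockout 13 and 74.1 in knockout 16. Over the controls this was 247 ± 67.8 tags per kilobase for Rps15 and 175 ± 47.7 for Rpl8 (SD, n = 3). Rpl7, Rps9, Rplp0 and Rps4x came next, with control means of 122, 106, 100 and 93.4 tags per kilobase and SDs of 40.2, 34.0, 31.0 and 21.6, so the control values of these neighbours overlapped. Much of that spread is shared by all the genes of a library: within libraries, Rps15 was above Rpl8 and Rpl8 above Rpl7 in 5 of 5, and each of the next 3 genes was above the one after it, beginning with Rpl7 over Rps9, in 4 of 5. These orders were not tested. The lowest were Rps27a, Rpl39l, Rpl3l and Rpl10l, with means over the 5 libraries of 1.13, 0.889, 0.822 and 0.815 tags per kilobase. Since the regions run over introns, short genes with little intron gain from this scale, and 2 of the 6 highest genes kept that place per kilobase of coding sequence.

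**Figure D1:**
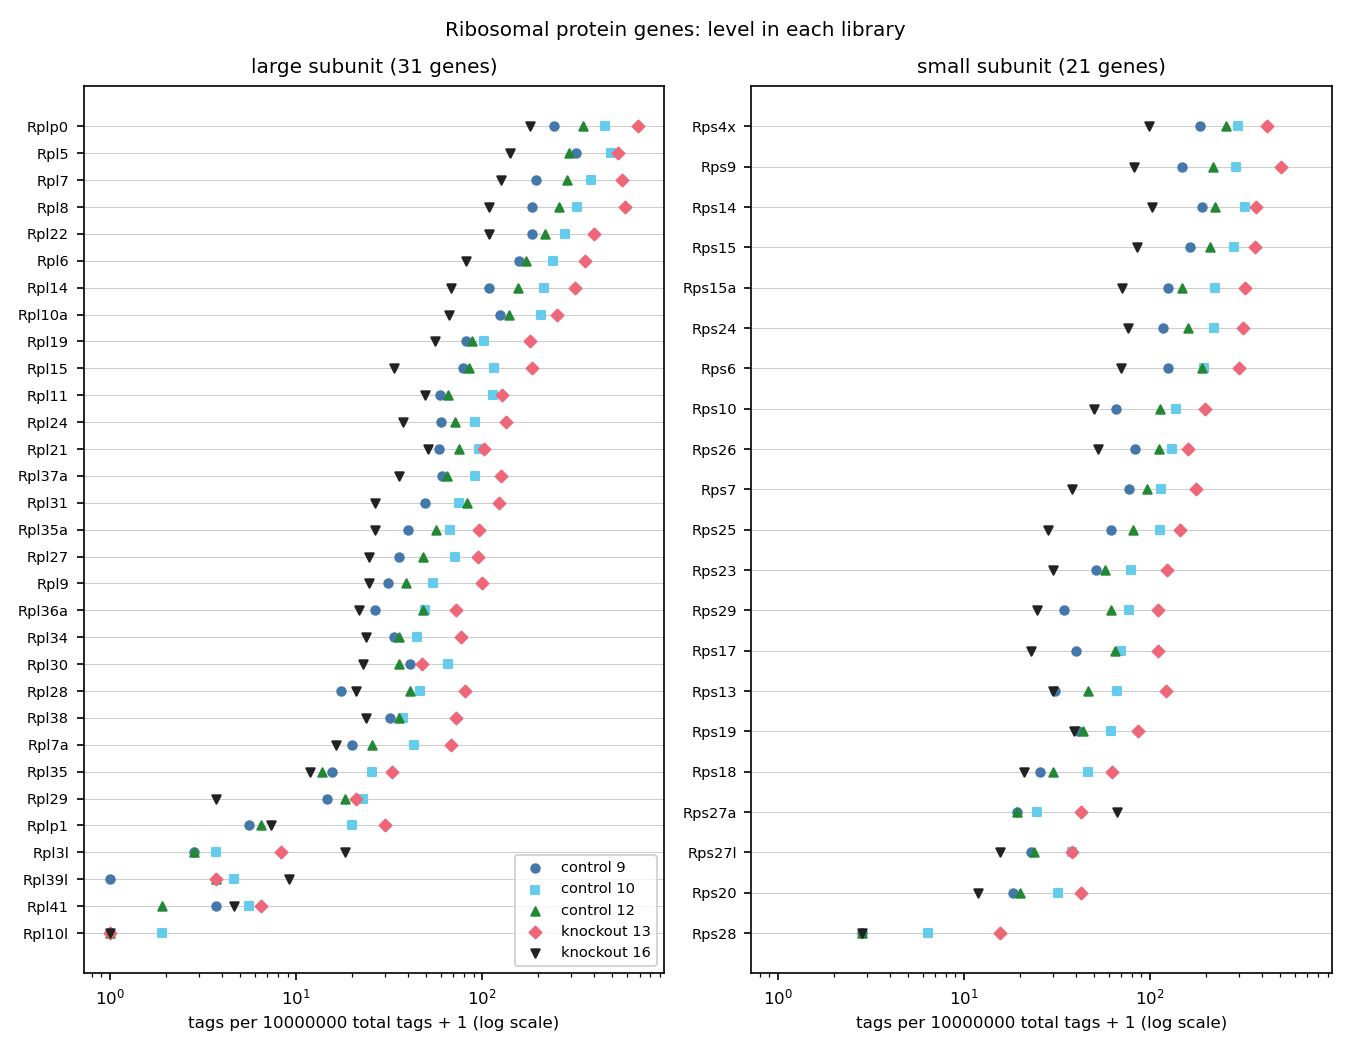
Tags per 10000000 total tags plus 1 (log axis) for each of the 52 ribosomal protein genes, with a symbol per library and genes ordered by mean within each subunit. Library 13 lies to the right and library 16 to the left of the 3 controls for most genes, while Rps27a, Rpl3l and Rpl39l are highest in library 16.

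The genes kept nearly the same order of libraries. In 38 of the 51 genes tested (74.5%) library 13 was highest, followed by controls 10, 12 and 9 and then library 16, an order shown by 1016 of 19313 genes (5.26%). With TMM factors, which remove a shift that most genes share, the same order stood in 7 of the 51 genes (13.7%) and in 245 of 19199 genes (1.28%). The proportions between the genes were also alike in the controls. A chi-square of the reads over the genes, divided by its degrees of freedom, was 0.958 between controls 9 and 10, 1.47 between 9 and 12 and 1.20 between 10 and 12, where counting noise alone gives about 1. Controls 10 and 12 held 1.70 and 1.23 times as many tags as control 9 for the median gene. Library 13 gave 2.92, 2.24 and 1.61 against controls 9, 10 and 12, and library 16 gave 3.37, 4.51 and 4.14. Without Rps27a, Rpl3l and Rpl39l, left out after their values were seen, library 16 gave 1.41, 1.38 and 1.64, and library 13 gave 3.07, 2.33 and 1.67. Between the controls the values were then 0.951, 1.503 and 1.28. For the same difference in proportions this measure grows with the reads. The median gene had 34 reads in library 16 and 134 in library 13, so a lower value in library 16 does not show closer proportions.

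No ribosomal protein gene was called between the 3 control and 2 knockout libraries. The limma test on log2(value + 1) called 0 of 19313 genes (those with a mean of 1 or more) at an adjusted p under 0.05, which is 0% of them, and so 0 of the 51 ribosomal protein genes tested. At an unadjusted p under 0.05 the test took 2 of the 51 as higher, namely Rpl3l and Rps27a, where 29.2% of all genes were taken as higher, and none as lower. The edgeR quasi-likelihood test on the recovered reads also called no gene, and DESeq2 called 25 genes. The median log2 change was -0.04 over the 51 genes and 0.97 over all genes, a difference of -1.01 for the group relative to the median gene. The large subunit stood at -0.99 and the small subunit at -1.05 on that relative scale, and 48 of the 51 genes lay below the median gene. Among genes with a mean of at least 20, the relative group change ran from -1.45 for Rpl30 to 0.39 for Rps27a. For Rpl30, whose log2 change was -0.48 ± 0.62 (SE), limma gave an adjusted p of 0.56. This median summarises 2 knockout libraries that lay on opposite sides of the controls: only 2 genes were above every control in both (50.2% of all genes) and none was below every control in both (0.202% of all genes). In whole tissue, fewer cells of a type and less RNA per cell cannot be told apart.

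In library 13 the ribosomal protein genes were higher by about as much as the median gene. Their median log2 change against the control mean was 0.93, or 0.13 relative to the median gene, with 0.13 in each subunit and a range from -0.75 to 1.26. The same relative median was -0.10, 0.03 and 0.07 in controls 9, 10 and 12. All but 4 of the 51 genes, 47 in number, were above every control, where 73.3% of all genes were, and none was below every control (1.46% of all genes). After subtraction of the background and TMM scaling, 20 of the 47 genes with enough signal were above every control in library 13 (23% of all genes), and their relative median was 0.11. The edgeR test of library 13 alone against the controls called 3 genes in all (0.0191%), and none of 48 ribosomal protein genes.

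In library 16 nearly all of them were low. The median log2 change against the controls was -1.01, or -2.29 relative to the median gene, with -2.21 in the large and -2.35 in the small subunit. In this library 44 of the 51 genes were below every control, against 7.86% of all genes, and 3 were above every control, against 72.9% of all genes. The edgeR quasi-likelihood test of library 16 alone against the 3 controls, in which the lone library is assumed to vary like the controls, called 45 of 49 genes lower and none higher, where it called 23.6% of 17864 genes lower. After background subtraction and TMM scaling the relative median was -1.21, and 45 of 47 genes were below every control (44.5% of all genes). The limma test on those values called 29 of 47 lower at an adjusted p under 0.05 (16.4% of all genes). Libraries 13 and 16 were compared with the same 3 controls.

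Genes of other functions with a high tag density were low in library 16 too, with medians near those of the ribosomal protein genes. The relative change in library 16 followed the control level per kilobase of region, with a Spearman rho of -0.92 across the 19313 genes and -0.63 across the 51. The genes share the libraries and the background, and rho across genes is given as a description. Between 20 and 100 control tags per kilobase, 28 ribosomal protein genes had a relative median of -2.33 and 235 other genes had -2.29, with quartiles of -2.51 and -2.10. Between 5 and 20 tags per kilobase, 14 ribosomal protein genes had -2.02 and 1487 other genes -1.81, with quartiles of -2.11 and -1.52. At 100 or more, Rpl7, Rpl8, Rplp0, Rps9 and Rps15 had -2.48 and 70 other genes -2.40. With background subtraction and TMM factors the values between 20 and 100 were -1.22 for the ribosomal protein genes and -1.19 for the others. In each of these ranges the ribosomal protein median lay inside the quartiles of the other genes. Between 1 and 5 tags per kilobase the only ribosomal protein gene, Rps28 with 2 reads in library 16, was at -1.68, outside the quartiles of -1.14 and -0.31 of 7927 other genes. Under 1 tag per kilobase, Rps27a, Rpl3l and Rpl39l had 0.55 and 9543 other genes 0.95. The differences between the ribosomal protein genes and the others were not tested. In library 13 the relation was near flat, with rho at 0.05 across all genes and -0.07 across the 51. Region length gave rho of 0.05 across the 51 genes in library 16.

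**Figure D2:**
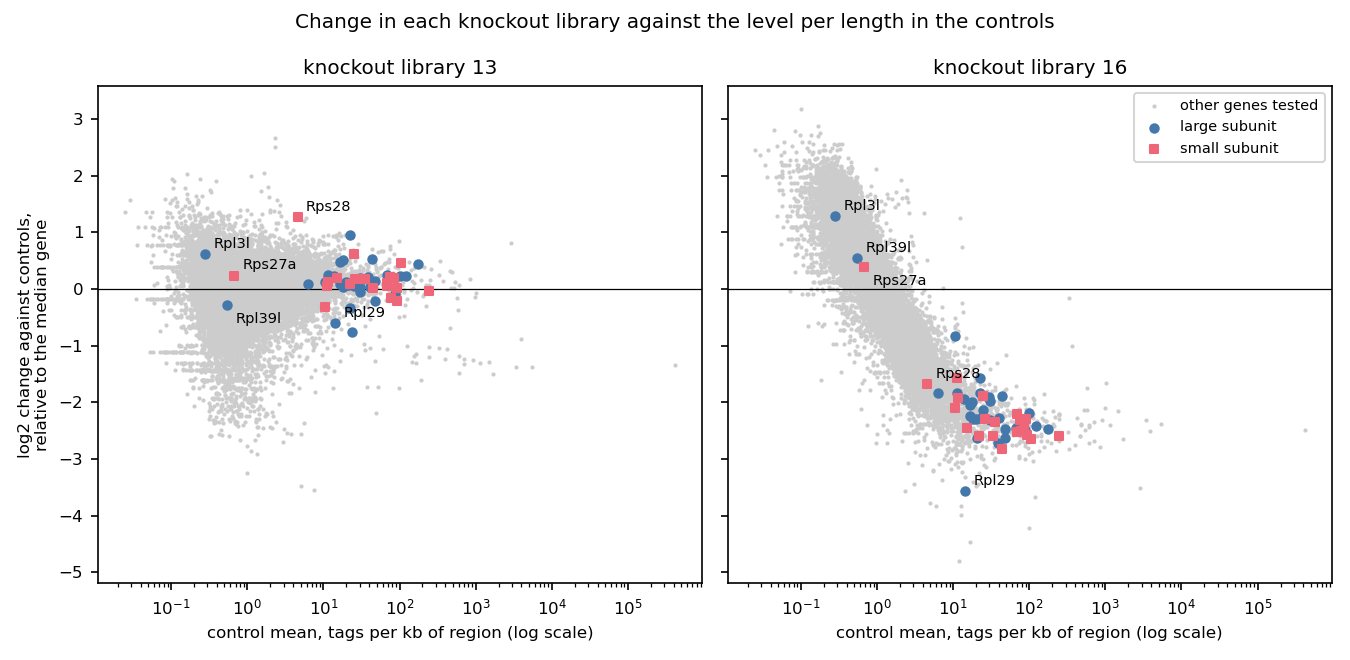
Log2 change of each gene against the 3 controls, relative to the median gene, in knockout libraries 13 and 16, against the control mean in tags per kilobase of region (log axis); grey points are the other genes tested, and genes at 0 in every control are not drawn. Most ribosomal protein genes lie within the grey band in both panels, around 0.13 in library 13 and around -2.29 in library 16, where the band falls with the level.

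In the large subunit, the stalk that draws elongation factors to the ribosome is built on Rplp0. Rplp0 (mm9 chromosome 5, 116010276 to 116013738) had 241, 455 and 346 tags in the controls, then 685 for knockout 13 and 179 for knockout 16. It was above the controls in library 13 and below them in library 16, with relative changes of 0.22 and -2.18. Its partner Rplp1 had far fewer tags, 4.55, 19.1 and 5.45 in the controls, with 29.1 in knockout 13 and 6.36 in knockout 16, and library 16 lay within the controls. The group change was 0.06 ± 0.54 (SE) for Rplp0 and 0.73 ± 0.76 for Rplp1 on the log2 scale, with limma adjusted p of 0.938 and 0.472.

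Rpl5 and Rpl11 travel with a small ribosomal RNA into the large subunit and, when free, bind Mdm2. Rpl5 (mm9 chromosome 5, 108330347 to 108338024) had 318, 494 and 293 tags in the controls, against 537 in knockout 13 and 140 in knockout 16. Rpl11 (mm9 chromosome 4, 135606263 to 135608886) had 58.2, 114 and 64.6 tags in the controls, then 127 for knockout 13 and 48.2 for knockout 16. Both were above every control in library 13 and below every control in library 16. Relative to the median gene the change was -0.22 and -2.63 for Rpl5 and -0.05 and -1.91 for Rpl11 in libraries 13 and 16. The Rpl5 region overlaps that of Fam69a by 564 bp, and their tags cannot be told apart there. On a list of p53 targets, 15 of 15 were listed, with relative medians of 0.07 in library 13 and -0.27 in library 16. As limma called 0 of 19313 genes, the lack of a call among these targets says nothing about them.

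Rpl38, needed for translation of Hox mRNAs in the mouse embryo, had closely matched controls, at 30.9, 36.4 and 34.6 tags, with 70.9 in library 13 and 22.7 in library 16. Rpl30 and Rpl21 were the least raised in library 13 among genes with a mean of at least 20. Rpl30 had 40, 64.6 and 34.6 tags in the controls, with 46.4 in knockout 13 and 21.8 in knockout 16, so library 13 lay within the controls, at -0.75 relative to the median gene. Rpl21 had 57.3, 94.6 and 73.6 tags in the controls, against 102 in knockout 13 and 50 in knockout 16. Rpl28, whose tract is shown above, had 16.4, 45.5 and 40 tags in the controls, then 80.0 for knockout 13 and 20 for knockout 16, which overlapped the controls. Rpl9 had 30, 53.6 and 38.2 tags in the controls, with 99.1 in knockout 13 and 23.6 in knockout 16. Rpl15 was among the lowest in library 16, at -2.72 relative to the median gene, with 78.2, 115 and 83.6 tags in the controls, against 184 in knockout 13 and 32.7 in knockout 16. Rpl29 lay lower still, at -3.57, with 13.6, 21.8 and 17.3 tags in the controls, then 20 for knockout 13 and 2.73 for knockout 16, which is 3 reads. It was named after its values were seen.

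In the small subunit, Rps6 is the substrate of the S6 kinases downstream of mTORC1. Rps6 (mm9 chromosome 4, 86500403 to 86502871) had 124, 194 and 188 tags in the controls, with 300 in knockout 13 and 69.1 in knockout 16. Its relative changes were 0.06 in library 13 and -2.52 in library 16, and the group change was -0.19 ± 0.55 (SE) with a limma adjusted p of 0.79. Rps19, the gene most often mutated in Diamond-Blackfan anaemia, had 40, 60.9 and 42.7 tags in the controls, against 85.5 in knockout 13 and 38.2 in knockout 16. Library 16 lay just under the lowest control for Rps19, and its relative change of -1.57 was among the smallest in the group. Rps25, used by some viral and cellular mRNAs for internal initiation, was the lowest small-subunit gene in library 16, with 60.9, 112 and 80.0 tags in the controls, then 145 for knockout 13 and 27.3 for knockout 16. Its relative change in library 16 was -2.83 as deposited and -1.72 with background subtraction and TMM factors. Rps14 had 188, 322 and 224 tags in the controls, with 372 in knockout 13 and 102 in knockout 16. Rps13 had 30, 65.5 and 45.5 tags in the controls, against 121 in knockout 13 and 29.1 in knockout 16, within 1 tag of control 9. Rps28 had the highest relative change in library 13, 1.26, on 14.6 tags against 1.82, 5.45 and 1.82 in the controls, and it was named after its values were seen. Those values are 16, 2, 6 and 2 reads, with exact 95% Poisson intervals of 8.31 to 23.6 tags in library 13, 2.00 to 11.9 tags in control 10 and 0.22 to 6.57 tags in controls 9 and 12. The interval of library 13 overlaps that of control 10 and lies above those of controls 9 and 12.

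Only Rps27a, Rpl3l and Rpl39l were above every control in library 16. Rps27a encodes ubiquitin fused to a small-subunit protein, and had 18.2, 23.6 and 18.2 tags in the controls, then 41.8 for knockout 13 and 65.5 for knockout 16. Its region spans 29603 bp (mm9 chromosome 11, 29448750 to 29478352), while the RefSeq gene spans 2199 bp, so most of the region lies beyond that span. At the background of library 16, a region of that length would hold 44.4 tags, 67.8% of its value. Rpl3l, a paralog of Rpl3 known from striated muscle, had 1.82, 2.73 and 1.82 tags in the controls, with 7.27 in knockout 13 and 17.3 in knockout 16, with 11.3 tags of background expected in library 16. Rpl39l, a paralog known from testis, had 0, 3.64 and 2.73 tags in the controls, against 2.73 in knockout 13 and 8.18 in knockout 16, with 5.82 expected. The limma group changes were 1.36 ± 0.64 (SE) for Rps27a, 1.99 ± 0.87 for Rpl3l and 1.18 ± 0.94 for Rpl39l, with adjusted p of 0.144, 0.118 and 0.356. Across the ribosomal protein genes the median expected background in library 16 was 3.76 tags, and the median of its share of the value was 10.4%. That share was over 50% in 5 genes. The p53-inducible paralog Rps27l was lowest in library 16 like most of the group, with 21.8, 37.3 and 22.7 tags in the controls, then 37.3 for knockout 13 and 14.6 for knockout 16. The testis paralog Rpl10l had 0, 0.91 and 0 tags in the controls and 0 in both knockout libraries. For a count of 0 the exact 95% Poisson interval reaches 3.35 tags.

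Several ribosomal protein genes appear in the table under the name of a small nucleolar RNA (snoRNA), the guide RNAs of ribosomal RNA modification that are cut from ribosomal protein introns. For 18 of the 29 genes without a region of their own name, a region under a snoRNA name in the table had the length of the RefSeq host gene less 800 bp, to within 50 bp, and 14 matched exactly. The same 800 bp were missing from the regions of 28 of the 52 genes above, and 36 were within 25 bp of that. The region named Snora62 (mm9 chromosome 9, 120037684 to 120041487) is 3804 bp long, and Rpsa, its host, spans 4604 bp. Snora62 had 460.0, 2291 and 1099 tags in the controls, with 2568 in knockout 13 and 359 in knockout 16. Snord15b, in Rps3, had 633, 2202 and 892 tags in the controls, against 2092 in knockout 13 and 562 in knockout 16. Snord16a, in Rpl4, had 599, 1118 and 822 tags in the controls, then 1590 for knockout 13 and 300 for knockout 16. Snord83b, in Rpl3, had 175, 262 and 241 tags in the controls, with 390.0 in knockout 13 and 90.0 in knockout 16. Snora70, in Rpl10, had 220.0, 578 and 211 tags in the controls, against 425 in knockout 13 and 151 in knockout 16, and Snora52, in Rplp2, had 59.1, 210 and 63.6 in the controls, then 219 for knockout 13 and 44.6 for knockout 16. Control 10 exceeded the other controls in each of these 6, and library 13 exceeded control 10 in all but Snord15b and Snora70. All 18 were below every control in library 16, with a relative median of -2.31, and their relative median in library 13 was 0.06. There were 22 regions under snoRNA names with such hosts, and those without a matching length were left out. Of these, Snora64, in Rps2, had 8.18, 16.4 and 11.8 tags in the controls and 19.1 in library 16, above every control. Snord42a lay within the controls there, and Snord58b and Snord100 lay below them. Such a region counts the snoRNA and the host mRNA together. Adding the 18 to the group left the relative median of the group comparison at -1.02.

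**Figure D3:**
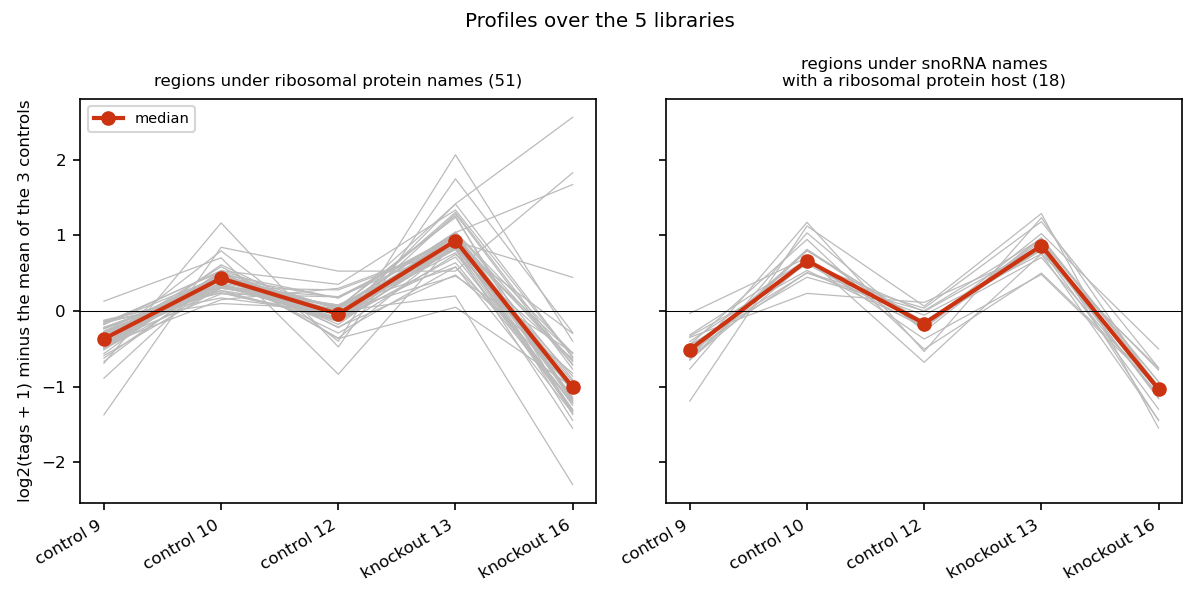
Log2(tags + 1) minus the mean of the 3 controls in each library, for 51 regions under ribosomal protein names (left) and 18 regions under snoRNA names whose host is a ribosomal protein gene (right); grey lines are regions and red points their medians. The medians of both groups are highest in library 13 and lowest in library 16, and 3 regions on the left are highest in library 16.

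Introns that hold snoRNAs made no visible difference among the 52 genes. The 7 genes with an annotated snoRNA inside had relative medians of 0.11 in library 13 and -2.21 in library 16, and the 44 others tested had 0.13 and -2.29. Genes with a TOP tract at the annotated start, shown above, had medians of 0.19 in library 13 and -2.29 in library 16, and those with a promoter but no tract had 0.09 and -2.26. In library 16 the 25 tested genes of shorter region stood at -2.31 and the 26 of longer region at -2.21. None of these differences was tested.

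Other genes of ribosome production and translation gave intermediate values in library 16. Translation factors and other genes with TOP mRNAs, of which 32 of 42 were listed, had relative medians of 0.14 in library 13 and -1.88 in library 16, with 22 below every control in library 16. Eif4g2, a scaffold of translation initiation, had 1531, 5237 and 2855 tags in the controls, with 5215 in knockout 13 and 948 in knockout 16. Mitochondrial ribosomal proteins, 72 of 72 listed, stood at 0.16 and -1.09, with 15 below and 28 above every control in library 16. Ribosome assembly factors, 29 of 43 listed, stood at 0.00 and -0.80, and 1 was below every control in library 16. Genes of mTORC1 with Larp1, 12 of 15 listed, stood at 0.01 and -0.83, and none of the 11 tested was below every control. RNA polymerase I, which makes the ribosomal RNA precursor, had 14 of 15 genes listed, at 0.12 and -0.42. As limma called no gene at all in the group comparison, it called none of these lists either. With background subtraction and TMM factors the library 16 medians were -1.02 for the translation factors, -0.65 for the mitochondrial ribosomal proteins, -0.40 for the assembly factors, -0.24 for mTORC1 with Larp1 and -0.07 for RNA polymerase I. These lists differ in length and tag density, whose part in the order was not tested.

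**Figure D4:**
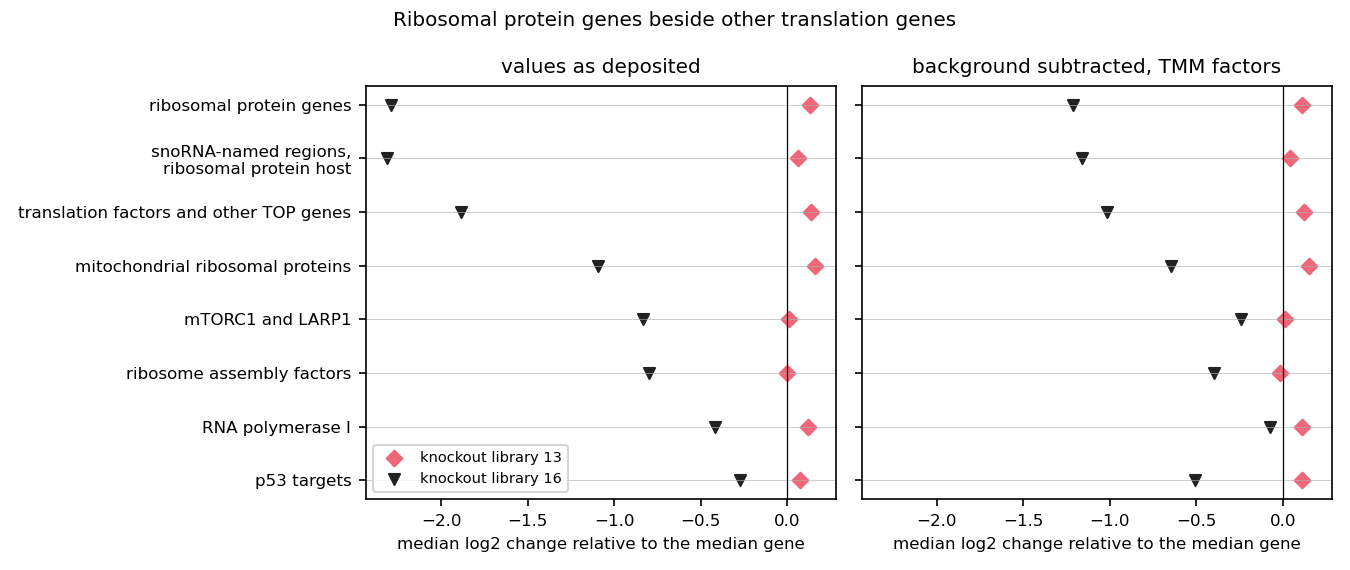
Median log2 change relative to the median gene for 8 lists in knockout libraries 13 (red diamonds) and 16 (black triangles), from the deposited values (left) and after background subtraction with TMM factors (right). Library 13 lies between 0.00 and 0.16 for every list on the left, while library 16 runs from -2.31 for the snoRNA-named regions to -0.27 for p53 targets.

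Marker lists of the cell types that the tissue could hold differed in where library 16 lay. The 10 pituitary markers summed to between 551 and 946 tags in the controls, against 1790.0 in knockout 13 and 788 in knockout 16, where 255 tags of background were expected and none was at 0. In library 13, 9 of the 10 were above every control (73.3% of all genes). Cga, with 31.8, 107 and 55.5 tags in the controls, had 8.18 there. In library 16, 2 of the 10 were above every control and 4 below, against 72.9% and 7.86% of all genes. The 6 mesenchyme markers summed to between 630.0 and 1176 in the controls and to 747 in library 16, with 302 of background expected and none at 0, so that both lists lay within the controls in library 16. The erythroid list, 7 of 8 listed, summed to between 212 and 501 tags in the controls, then 334 for knockout 13 and 743 for knockout 16, with 89.9 of background expected in library 16, and only Hbb-bh1 was at 0, in control 10. The 5 endothelium markers summed to between 221 and 366 in the controls, with 447 in knockout 13 and 680.0 in knockout 16, where 423 tags of background were expected, and none was at 0. The 4 macrophage markers summed to between 48.2 and 85.5 in the controls, against 117 in knockout 13 and 255 in knockout 16, with 212 of background expected and Cd68 at 0 in control 9. The 5 muscle markers summed to between 105 and 244 in the controls, then 326 for knockout 13 and 590.0 for knockout 16, with 438 of background expected and Myog at 0 in control 12. The 7 neural and infundibulum markers summed to between 628 and 955 in the controls, with 973 in knockout 13 and 893 in knockout 16, with 621 of background expected and none at 0. Relative to the median gene, the library 16 medians of the other lists, as deposited, were -0.08 for erythroid, -0.35 for endothelium and 0.43 for macrophage. They were 0.64 for muscle and -1.22 for neural and infundibulum. The part of these cells in the ribosomal protein values was not tested.

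In the authors' deposited table, 1140 rows list changed genes, beside 20097 symbols measured, and none of the 52 genes or of the 18 snoRNA-named regions is among them. At that share only a few of them would be listed, so this count and those below are not a result about the lists. From the mitochondrial ribosomal proteins it names 1, Mrps25, with a log2 fold change of -0.29 and a p-value of 1.01e-09 in the authors' deposited table. The authors' deposited table also holds the assembly factors Bysl, Tsr1 and Dimt1, with log2 fold changes of -0.12, -0.41 and -0.66. From the other lists of translation genes the authors' deposited table holds Cd3eap of RNA polymerase I at 2.09 and the initiation factor Eif4g1 at -0.1. Rptor and Tsc2 of the mTORC1 list stand there at -0.19 and -0.65. The marker lists have 1 pituitary, 2 erythroid, 2 neural and infundibulum, 1 endothelium and 1 macrophage gene in the authors' deposited table. None of the mesenchyme or muscle markers is in it.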

How the data were processed

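The libraries were made from total RNA depleted of ribosomal RNA, with a strand-specific kit, per the labels' protocols. Tools listed without roles in the submitters' processing notes are Bowtie2, HOMER and edgeR, and the build is mm9. Per the file headers, the deposited table holds a normalized signal for every region in each library, in tags scaled to 10000000. In all values (100% within 0.01 reads) this signal was a whole multiple of 10/11, as for 11000000 total tags in each library, and reads were recovered from it. The treatment of reads with several matches was not given in the sources used here; ribosomal protein genes have many processed pseudogenes, so levels of single genes are uncertain. The authors' deposited table of changed genes gives a log2 fold change and a p-value per gene, a linear fold and a score per genotype, of which the last 2 were not used.

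The longest of 21022 regions was kept for each symbol. Group differences were tested by limma 3.58.1 with its trend option under R 4.3.3, on log2(value + 1) and without covariates. Genes needed a mean of 1 or more, and Benjamini-Hochberg adjustment ran over all of them, at a threshold of 0.05. This scale understates changes of low genes. A relative change is a gene's log2 change minus the median over all genes tested. The p-values measure the spread between libraries, in which differences between embryos and between library preparations cannot be told apart. With 3 against 2 libraries the precision is limited. In tests with 1 knockout library left out, only the 3 controls supply that spread. Count tests used edgeR 4.0.16 and DESeq2 1.42.0. Background per kilobase was subtracted with a floor of 0, and with TMM factors a mean of at least 5 was required. The limma and edgeR tests were tried on simulated counts with known changes, without a shift or background that differed between libraries. Other alternatives were pseudocounts, filters, the shortest region and leaving out each library.

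The members and all gene lists were chosen with earlier results of these data known. Named genes are the 6 highest and 4 lowest per kilobase, those at the ends of the changes among genes with a mean of at least 20, genes of known role, paralogs, and the most abundant of other lists; some are not shown. Sequences and gene lengths come from RefSeq (GRCm38.p6), and coordinates of regions are mm9. All regions carry a plus sign whatever the gene's strand, so overlapping genes cannot be told apart. Poisson intervals (exact, 95%) reflect counting error alone.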

Additional observations from a re-analysis of the deposited data

How the results depend on the processing

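The group comparison depended on which knockout library was kept. Leaving out 1 library at a time moved the relative median of the ribosomal protein genes between -2.32 and 0.12, that of the large subunit between -2.25 and 0.12, and that of the small subunit between -2.41 and 0.13. Without library 13 the 3 medians (all, large, small) were -2.29, -2.22 and -2.35 by limma and -1.24, -1.23 and -1.26 with background subtraction and TMM factors. Without library 16 they were 0.12 each by limma and 0.107, 0.106 and 0.113 with background subtraction and TMM factors. With all libraries, the 3 medians were -0.54, -0.52 and -0.54 with background subtracted, -0.51, -0.49 and -0.57 with TMM factors added, -0.82, -0.78 and -0.83 with a pseudocount of 5, -0.89, -0.88 and -0.92 with a mean of at least 20, -0.61, -0.61 and -0.60 with edgeR, and -0.67, -0.65 and -0.67 with DESeq2. Every one of these was below the median gene. Over all genes the count of calls was 1 with background subtracted, 632 with a mean of at least 20, 25 with DESeq2, and between 0 and 7945 with a library left out, where the highest count came from edgeR without library 13, and limma with background subtraction and TMM factors gave 3270 without it. The count of ribosomal protein genes outside the controls in the same direction in both knockout libraries was 9 of 51 with TMM factors (15.2% of all genes), 6 of 47 with background subtraction and TMM factors (15.6%), 1 of 44 with a mean of at least 20 (55.6%), 8 of 47 with the scaling and filter of edgeR (14.99%), and between 2 and 4 of 51 with a control left out (51.9% to 69.1%), the highest without control 10. It has no value with a knockout library left out. Without library 16, the relative change turned positive for Rps25 (0.0083), Rpl9 (0.50), Rpl28 (0.53), Rps13 (0.61), Rps6 (0.050), Rplp0 (0.22) and Rps19 (0.040), and without library 13 it was -2.83, -1.997, -1.89, -1.88, -2.53, -2.19 and -1.58 in that order. In edgeR without library 16 it was 0.0032, 0.51, 0.47, 0.60, 0.036, 0.21 and 0.048 for the same genes, and with background subtraction and TMM factors 0.49 for Rpl9, 0.52 for Rpl28, 0.60 for Rps13, 0.027 for Rps6, 0.19 for Rplp0 and 0.025 for Rps19. The cause was not tested. Of the 6 highest genes per kilobase of region, 2 were among the 6 highest per kilobase of coding sequence, taken from GENCODE. The planned length from RefSeq proteins was not run. The edgeR and background fits without a knockout library, the addition of snoRNA-named regions, the groups by tag density and the fit without Rps27a were chosen after seeing the data. No paired analysis was possible because the control and knockout libraries share no replicate number. With a median of 34 reads per gene in library 16, small differences between ribosomal protein genes are not detectable there.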

Other observations

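A few regions carry pseudogene names of the family and were left out of the group. Rps15a-ps6 had 185, 297 and 221 tags in controls 9, 10 and 12, with 436 in knockout 13 and 233 in knockout 16. Rpl31-ps12 had 50.9, 84.6 and 47.3 tags in the controls, with 110.0 in knockout 13 and 178 in knockout 16, the highest of the 5. Their regions span 93960 and 75548 bp, far longer than the 3260 bp of Rpl31. Fau, which encodes a small-subunit protein fused to a ubiquitin-like domain, lies outside the naming rule. Fau had 46.4, 79.1 and 64.6 tags in the controls, with 109 in knockout 13 and 22.7 in knockout 16.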
